A study of Mus musculus with 6 samples.

Results

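Foxp3 and 5 genes that mark or serve regulatory T cells were examined in mouse naive CD4+ T cells (Naive) and in the Th17 and Th1 cells grown from them. The genes were taken from the count files by symbol and are Foxp3, Ikzf2, Ikzf4, Nrp1, Lrrc32 and Gpr83, 6 of the 24223 genes in the count files. All 6 were measured in every library and passed the filter on low counts, which left 13607 genes for testing.

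RNA-Seq was performed on 6 libraries, 2 for each cell type, which the study describes as independent biological replicates without saying which animals they came from. Naive were CD4+CD44- cells from the pooled spleens and lymph nodes of C57BL/6 mice of 1 to 2 months. They were isolated with a commercial magnetic kit for CD4+CD62L+ T cells. The sources used here do not list the antibodies of that kit, so whether it removed CD25+ cells is not known from them. Th17 and Th1 were collected on day 5 of culture with anti-CD3 and anti-CD28, either as antibodies or on beads, and both received anti-IL-4. Th17 cultures also held anti-IFN-γ, TGF-β (1 ng/ml), IL-6 (100 ng/ml), IL-1β (10 ng/ml) and IL-23 (20 ng/ml), and Th1 cultures IL-12 (20 ng/ml) and IL-2 (10 ng/ml). No culture of regulatory T cells was among the libraries. The study also stained its Th17 cells for FOXP3 protein, a measurement shown in a supplementary figure and not read here. The summed level of 7 T cell markers was 2901 to 4314 CPM (reads counted on a gene per 1000000 reads counted in the library, with the total scaled by TMM), with all 7 above 1 CPM in every library. Summed Th17 and Th1 markers followed the labels. The 8 Th17 markers reached 1569 and 2011 CPM in Th17 against at most 64.6 elsewhere. The 6 Th1 markers reached 1579 and 1639 CPM in Th1 against at most 280 elsewhere. Of these genes, Rora (Th17 list) and Hlx (Th1 list) overlapped between Th17 and Th1. The summed 6 naive T cell markers did not separate the cell types. Their sums were 2821 and 4273 CPM for the Naive libraries and 2560 to 4520 CPM among T helper libraries. None of these 6 was called in any comparison. Markers of 7 neutrophil genes summed to 2773 and 2875 CPM in Th17 against at most 310 elsewhere. The largest of these in Th17 were S100a8 (1149 and 1142 CPM) and S100a9 (1039 and 1060 CPM). Mpo went the other way (251 and 159 CPM in Naive, 68.1 and 58.7 in Th17), and Elane overlapped between Naive and Th17. The 6 B cell markers summed to 2.46 to 15.9 CPM, and 6 CD8 T and NK cell markers to 7.52 to 46.1 CPM, highest in Naive. The part of such cells in the differences between cell types was not tested.

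Regulatory T cells are CD4+ T cells that restrain immune responses, and the X-linked forkhead factor Foxp3 sets and maintains their identity. Ikzf2 (Helios) and Ikzf4 (Eos) are Ikaros-family zinc-finger factors found with Foxp3 in these cells, Nrp1 is a semaphorin and VEGF co-receptor on thymus-derived regulatory T cells, Lrrc32 (GARP) holds latent TGF-β at the cell surface, and Gpr83 is a G protein-coupled receptor enriched in the lineage. TGF-β can induce Foxp3 in activated naive T cells, and IL-6 opposes that induction and favours Th17 differentiation. These bulk libraries cannot tell fewer cells of a type from less RNA per cell.

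Windows of 250 bases before the annotated start are shown for Foxp3, Nrp1 and Gpr83, which were called lower than in Naive in at least 1 T helper cell type. They come from RefSeq on GRCm38.p6, which matched 3 of the 6 genes. For Foxp3 the window lies before the downstream of its RefSeq starts, and the window of Nrp1 lies before its RefSeq start, inside the GENCODE vM21 span of the gene, which begins upstream, but outside its exons. Each reads 5′ to 3′ on the gene's strand, which is the plus strand for all 3, and capitals mark the motif matches named after them. Foxp3 is at chrX:7580233-7580482, Nrp1 at chr8:128358823-128359072 and Gpr83 at chr9:14859960-14860209.
Foxp3: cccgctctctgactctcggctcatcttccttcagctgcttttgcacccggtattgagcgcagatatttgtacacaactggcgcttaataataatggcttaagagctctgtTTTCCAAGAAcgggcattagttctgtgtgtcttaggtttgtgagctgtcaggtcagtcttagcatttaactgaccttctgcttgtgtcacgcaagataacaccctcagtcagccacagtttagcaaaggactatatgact
Nrp1: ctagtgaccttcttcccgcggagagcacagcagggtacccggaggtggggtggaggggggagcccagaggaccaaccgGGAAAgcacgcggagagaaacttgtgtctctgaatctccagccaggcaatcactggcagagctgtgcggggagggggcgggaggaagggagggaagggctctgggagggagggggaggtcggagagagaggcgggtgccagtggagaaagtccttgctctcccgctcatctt
Gpr83: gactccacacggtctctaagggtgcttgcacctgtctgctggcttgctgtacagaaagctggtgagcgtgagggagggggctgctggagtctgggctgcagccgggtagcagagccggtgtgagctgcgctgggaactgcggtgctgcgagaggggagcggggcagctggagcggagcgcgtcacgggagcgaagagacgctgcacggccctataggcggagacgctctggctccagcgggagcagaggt

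On both strands 5 motifs were searched: GGAAA (NFAT), TTCNNNGAA (STAT), TGTGGT (Runx), TGACGTCA (CRE) and TGTTTAC (forkhead). In the printed Foxp3 window, a STAT match lay at positions -139 to -131 from the start and overlapped an NFAT match on the other strand at -140 to -136. The window before the upstream RefSeq start of Foxp3 (chrX:7579426-7579675), not printed here, was also searched. It held an NFAT match at -205 to -201 and no STAT, Runx, CRE or forkhead match. That window was 37.6% G or C, and 109 of its bases lie in exons of Foxp3. The Nrp1 window held 1 NFAT match at -172 to -168, and the Gpr83 window held none of the 5. Among 32851 promoter windows of this length, NFAT letters were in 55.6%, STAT in 7.02%, Runx in 14.0%, CRE in 1.55% and forkhead in 3.17%. The printed Foxp3 window was 46.0% G or C, below the median of 52.4% over all windows, whereas Nrp1 (64.4%) and Gpr83 (66.8%) were above it. These matches describe the letters only.

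To see how the regulatory T cell genes change as naive cells become T helper cells, each cell type was compared with the others. A gene was called where the adjusted p-value of edgeR's quasi-likelihood test was under 0.01 and the log2 fold change over 1 in either direction. In Th17 relative to Naive, 2 of the 6 genes were called lower (Ikzf2 and Nrp1) and 0 higher, where 1.43% of all tested genes were called lower and 4.01% higher. In Th1 relative to Naive, 3 were called lower (Foxp3, Ikzf2 and Gpr83) and 0 higher, against 2.81% lower and 4.64% higher among all genes. In Th1 relative to Th17, 1 was called lower (Gpr83) and 0 higher, against 2.83% and 2.70%. Without adjustment for the number of genes, 4, 5 and 3 of the 6 genes had an edgeR p-value under 0.05 in these 3 comparisons, where 33.3%, 29.9% and 33.8% of all tested genes did. The median log2 fold change of the 6 genes was -1.70 (Th17 vs Naive), -1.59 (Th1 vs Naive) and -0.18 (Th1 vs Th17), whereas that of all tested genes was -0.02, -0.02 and -0.03. Both Th17 libraries lay below both Naive libraries for 5 of the 6 genes and above them for 0. Among all tested genes, 33.1% and 32.4% did so. In Th1 vs Naive the counts were 4 and 1 of the 6, against 28.4% and 27.6% of all genes. In Th1 vs Th17 they were 1 and 2, against 35.1% and 31.5%. Such separation of 2 against 2 libraries was thus common among all genes. Both comparisons with Naive use the same 2 Naive libraries, so they are not independent of each other.

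**Figure D1:**
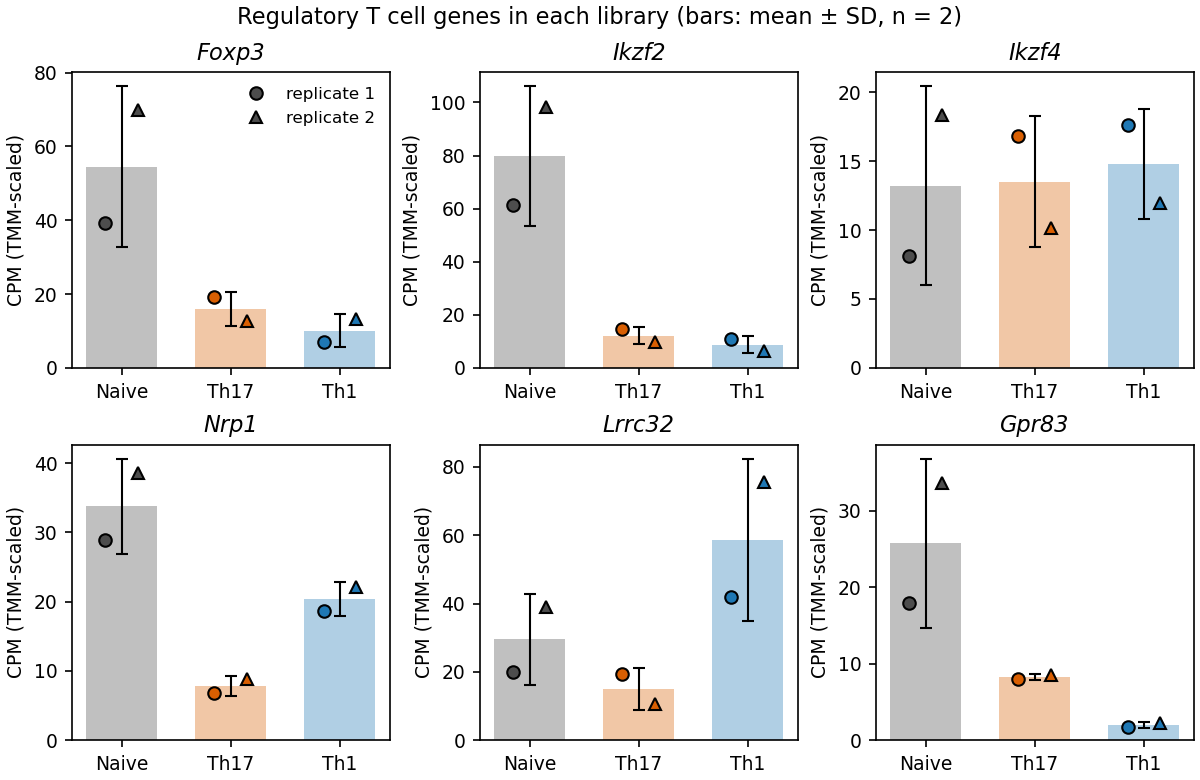
CPM over the TMM-scaled library total (y axis) of each gene in Naive, Th17 and Th1, with circles for replicate 1, triangles for replicate 2, bars for the mean and whiskers for the SD of 2 libraries. Foxp3, Ikzf2, Nrp1 and Gpr83 are highest in both Naive libraries, Lrrc32 in both Th1 libraries, and Ikzf4 overlaps among all 3 cell types.

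**Figure D2:**
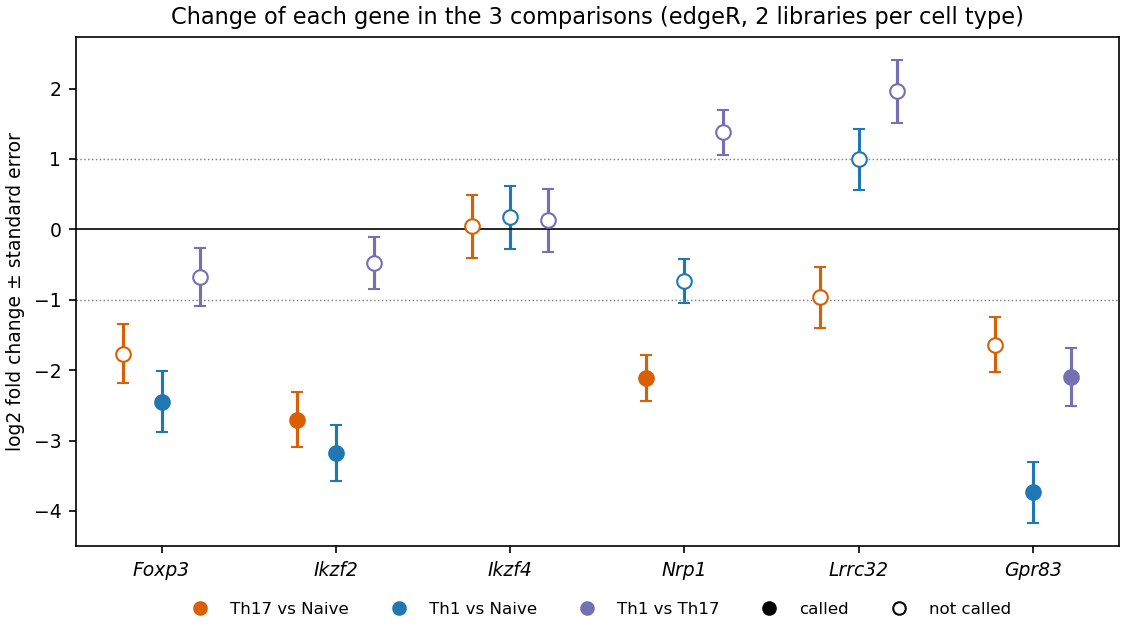
Log2 fold change with its standard error (y axis) of each gene in Th17 vs Naive, Th1 vs Naive and Th1 vs Th17, where filled points were called by edgeR, open points were not, and dotted lines mark 1 and -1. Ikzf2 lies below -2 in both comparisons with Naive, Gpr83 spreads from -1.64 to -3.74, and the 3 points of Ikzf4 lie near 0.

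Foxp3, the lineage factor itself (X:7573644-7595245, plus strand, GENCODE vM21 on GRCm38), was most abundant in Naive. Its level was 39.2 and 69.9 CPM in the Naive libraries, 19.2 and 12.7 CPM in Th17, and 6.94 and 13.2 CPM in Th1, from 209 to 2670 counts per library. Both Naive libraries lay above all T helper libraries, and the Th17 and Th1 values overlapped. The mean was 54.5 ± 21.7 CPM in Naive, 15.9 ± 4.54 in Th17 and 10.1 ± 4.43 in Th1 (SD, n = 2 each). Foxp3 fell in Th1 by 2.45 on the log2 scale relative to Naive (SE 0.43, edgeR adjusted p = 0.0044), a 5.46-fold lower level. That call was lost without Naive replicate 2 (-1.97, adjusted p = 0.016) and without Th1 replicate 1 (-2.01, adjusted p = 0.021). In Th17 the log2 fold change was -1.77 (SE 0.42, edgeR adjusted p = 0.021), which missed the threshold. DESeq2 made the call (adjusted p = 0.0014), as did edgeR on only the 4 libraries compared (-1.73, adjusted p = 0.0076). With library size as the only scaling, edgeR did not (-1.795, adjusted p = 0.031), and 5 of 9 alternative settings left Foxp3 uncalled. Leaving out 1 library moved the change from -2.13 (without Naive replicate 1) to -1.29 (without Naive replicate 2). Th1 and Th17 were not separated for Foxp3 (-0.68, SE 0.41, edgeR adjusted p = 0.27). An exact permutation test of 2 against 2 libraries cannot give a two-sided p below 0.333, so none was run for single genes.

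The exons of Foxp3 overlap those of other genes more than the exons of the other 5 genes do. Of its 4577 exon bases, 590 (12.9%) are shared with Ccdc22 and 266 (5.81%) with Ppp1r3f, both on the opposite strand, 373 (8.15%) with Gm36995, also opposite, and 853 (18.6%) with Flicr on the same strand, whereas no overlapping gene shared more than 1.24% of the exon bases of any of the others. The sources give different strand settings for the counting, so reads of Foxp3 and of its opposite-strand neighbours may not be fully separated. Flicr and Gm36995 were not analysed here, and how many Foxp3 reads were dropped as ambiguous is not known, which bears on its level. Ccdc22 was at 30.1 and 30.9 CPM in Naive, 22.6 and 22.4 CPM in Th17, and 19.0 and 24.8 CPM in Th1, a narrower range than that of Foxp3. Ppp1r3f was at 13.3 and 22.5 CPM in Naive, 8.03 and 4.47 CPM in Th17, and 14.9 and 13.8 CPM in Th1. Its Th17 values lay below both Naive values, as those of Foxp3 did, and its Th1 values lay between them.

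Ikzf2 (1:69531214-69687245, minus strand) encodes Helios and was lower than Naive in both T helper cell types. It reached 61.3 and 98.4 CPM in Naive, 14.5 and 9.90 CPM in Th17, and 10.9 and 6.51 CPM in Th1. The Naive libraries stood well apart, and Th17 and Th1 overlapped. Means were 79.8 ± 26.2, 12.2 ± 3.26 and 8.72 ± 3.12 CPM (SD, n = 2). Relative to Naive, Ikzf2 fell 6.51-fold in Th17 (log2 -2.70, SE 0.39, edgeR adjusted p = 0.0018) and 9.06-fold in Th1 (log2 -3.18, SE 0.40, edgeR adjusted p = 7.2e-04). The Th1 call held without any one library. The Th17 call was lost without Th17 replicate 1 (-3.01, adjusted p = 0.01) or Th17 replicate 2 (-2.46, adjusted p = 0.023), each of which left a single Th17 library. Th1 differed from Th17 by -0.48 (SE 0.37, edgeR adjusted p = 0.38).

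Ikzf4 (10:128630843-128645991, minus strand), which encodes the Foxp3 co-repressor Eos, was called in no comparison. Its level was 8.13 and 18.3 CPM in Naive, 16.9 and 10.2 CPM in Th17, and 17.6 and 11.9 CPM in Th1. The 3 cell types overlapped fully, and the gap between replicates exceeded that between the means of 13.2 ± 7.20, 13.5 ± 4.72 and 14.8 ± 3.99 CPM (SD, n = 2). The log2 fold changes were 0.05 (SE 0.45, Th17 vs Naive), 0.17 (SE 0.45, Th1 vs Naive) and 0.13 (SE 0.45, Th1 vs Th17), with edgeR adjusted p of 0.95, 0.84 and 0.86, and their sign turned when single libraries were left out and, in both comparisons of Th1, with library size as the only scaling. The other Ikaros-family genes were Ikzf1 (Ikaros) at 811 and 994 CPM in Naive, 519 and 401 CPM in Th17, and 780 and 823 CPM in Th1, Ikzf3 (Aiolos) at 48.0 to 193 CPM, and Ikzf5 at 27.4 to 45.6 CPM. None of these 3 was called in any comparison, so Ikzf2 was the only called gene of the 5 family genes measured. A lower level in Th17 was not particular to Ikzf2. Ikzf3 (log2 -1.31, edgeR adjusted p = 0.043) and Ikzf1 (log2 -0.97, edgeR adjusted p = 0.051) were also below Naive in both Th17 libraries. Ikzf5 (log2 -0.23) overlapped.

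Nrp1 (8:128358604-128503363, plus strand), the semaphorin co-receptor, was lowest in Th17. It was at 29.0 and 38.7 CPM in Naive, 6.84 and 8.88 CPM in Th17, and 18.6 and 22.1 CPM in Th1. No pair of cell types overlapped, with Naive highest and Th1 between Naive and Th17. Means were 33.8 ± 6.87, 7.86 ± 1.44 and 20.4 ± 2.47 CPM (SD, n = 2). Nrp1 fell 4.31-fold in Th17 relative to Naive (log2 -2.11, SE 0.33, edgeR adjusted p = 0.0027), a call that was lost without Naive replicate 2 (-1.89, adjusted p = 0.011), Th17 replicate 1 (-1.93, adjusted p = 0.036) or Th17 replicate 2 (-2.30, adjusted p = 0.021). Its log2 fold change was -0.73 in Th1 vs Naive (SE 0.31, edgeR adjusted p = 0.15) and 1.38 in Th1 vs Th17 (SE 0.32, edgeR adjusted p = 0.019), the latter called by DESeq2 (adjusted p = 7.3e-04).

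Because Nrp1 is also made by dendritic, macrophage and endothelial cells, their markers were read in the same libraries. A list of 10 macrophage and dendritic markers summed to 30.9 and 27.4 CPM in Naive, 20.7 and 65.8 CPM in Th17, and 10.6 and 7.52 CPM in Th1, with 5, 4, 7, 7, 2 and 2 of the 10 above 1 CPM. Single genes weighed on these sums. The largest values were of Ccr9 in Naive (10.2 and 14.6 CPM), Itgax in Th17 replicate 2 (23.8 CPM) and Xcr1 in Th1 (5.55 and 4.99 CPM). The plasmacytoid dendritic marker Siglech had 24 and 5 counts in Naive and 0 in every T helper library. Endothelial and stromal markers summed to 140 to 276 CPM, almost all from Pecam1 (134 to 274 CPM), which leukocytes also express. The part of such cells in the Nrp1 levels was not tested.

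Lrrc32 (7:98489283-98502181, plus strand), the GARP docking receptor for latent TGF-β, was the only one of the 6 genes with both Th1 libraries above all others. Its level was 20.03 and 39.0 CPM in Naive, 19.3 and 10.6 CPM in Th17, and 41.9 and 75.5 CPM in Th1. Both Th1 libraries exceeded all others, narrowly so for Th1 replicate 1 against Naive replicate 2, and both Th17 libraries were below both Naive libraries, by less than 1 CPM for the nearest pair. Means were 29.5 ± 13.4, 15.0 ± 6.19 and 58.7 ± 23.8 CPM (SD, n = 2). Lrrc32 was not called in any comparison. The log2 fold change was 1.96 for Th1 vs Th17 (SE 0.45, edgeR adjusted p = 0.018), a 3.89-fold higher level in Th1, 0.99 for Th1 vs Naive (SE 0.43, adjusted p = 0.16) and -0.97 for Th17 vs Naive (SE 0.44, adjusted p = 0.15). DESeq2 called the difference between Th1 and Th17 (adjusted p = 5.8e-04), whereas 4 of 9 alternative settings left it uncalled. Leaving out 1 library moved this log2 fold change from 1.48 (without Th1 replicate 2) to 2.47 (without Th17 replicate 1). GARP is also a platelet protein, and 8 megakaryocyte and platelet markers summed to 23.7 and 6.83 CPM in Naive, 292 and 505 CPM in Th17, and 81.5 and 38.2 CPM in Th1. The part of such cells in the Lrrc32 levels was not tested.

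Gpr83 (9:14860210-14870789, plus strand) had its lowest levels in Th1. It was at 17.9 and 33.6 CPM in Naive, 7.96 and 8.54 CPM in Th17, and 1.69 and 2.21 CPM in Th1, from 35 to 1218 counts per library. All 3 cell types were separated, with Naive highest and Th1 lowest. Means were 25.7 ± 11.1, 8.25 ± 0.414 and 1.95 ± 0.372 CPM (SD, n = 2). Gpr83 fell 13.3-fold in Th1 relative to Naive (log2 -3.74, SE 0.43, edgeR adjusted p = 5.1e-04), a call that held without any one library. It was also 4.28-fold lower in Th1 than in Th17 (log2 -2.10, SE 0.41, edgeR adjusted p = 0.0093). That call was lost without Th17 replicate 1 (-2.15, adjusted p = 0.037), Th17 replicate 2 (-2.05, adjusted p = 0.056), Th1 replicate 1 (-1.90, adjusted p = 0.045) or Th1 replicate 2 (-2.29, adjusted p = 0.022), and with all libraries thinned to one depth (-1.96, adjusted p = 0.017). In Th17 vs Naive the log2 fold change of -1.64 (SE 0.39) was not called by edgeR (adjusted p = 0.022) and was called by DESeq2 (adjusted p = 0.0014).

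Replicates of one cell type differed for these genes by amounts close to some of the differences between cell types. In Naive, all 6 genes were higher in replicate 2, from 1.34-fold for Nrp1 to 2.25-fold for Ikzf4, where the summed T cell markers were 1.28-fold and the summed naive T cell markers 1.52-fold higher. In Th17 the ratio of replicate 2 to replicate 1 ran from 0.547 (Lrrc32) to 1.30 (Nrp1), and in Th1 from 0.596 (Ikzf2) to 1.90 (Foxp3). Replicate 1 held 3.38 to 3.77 times the counts of replicate 2 in each cell type, with totals from 17742158 to 69080017. The 3 counts that bound an undetected gene equal 0.0440 to 0.190 CPM, well under the lowest value of the 6 genes. This limit covers counting error only.

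To compare the genes within a library without the scaling between libraries, each was set against Foxp3 counts. For each Foxp3 count, Lrrc32 had 0.511 and 0.557 counts in Naive, 1.01 and 0.831 counts in Th17, and 6.03 and 5.71 counts in Th1. The 3 cell types did not overlap in this ratio, and replicates lay close together. Ikzf4 had 0.207 and 0.262 counts per Foxp3 count in Naive, 0.880 and 0.800 counts in Th17, and 2.53 and 0.904 in Th1, so its ratio was higher in each T helper library than in Naive while its own level overlapped. Gpr83 had 0.456 and 0.480 in Naive, 0.415 and 0.671 counts in Th17, and 0.243 and 0.167 in Th1. Both Th1 values were below all others. For Ikzf2 the ratio was 1.56 and 1.41 in Naive and 0.757 and 0.778 in Th17, and the Th1 libraries parted, at 1.57 and 0.493. Nrp1 had 0.739 and 0.553 in Naive, 0.357 and 0.698 counts in Th17, and 2.68 and 1.67 in Th1. Of the CPM summed over the 6 genes, Lrrc32 made up 11.4% and 13.1% in Naive and 42.9% and 57.4% in Th1, whereas Foxp3 made up 22.3% and 23.5% in Naive and 7.11% and 10.1% in Th1. Ikzf2 held the largest share in Naive (34.9% and 33.0%) and Lrrc32 in Th1.

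**Figure D3:**
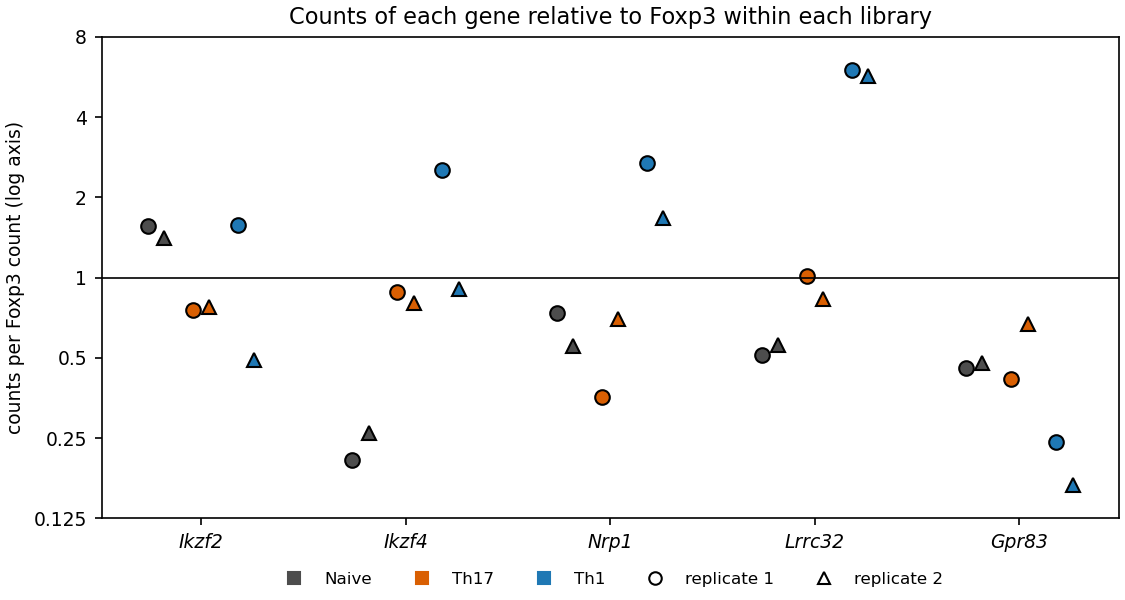
Counts of each gene per Foxp3 count within a library (y axis, log scale), in grey for Naive, orange for Th17 and blue for Th1, with circles for replicate 1 and triangles for replicate 2. Lrrc32 sits near 6 in both Th1 libraries and at 0.511 to 1.01 in the others, and Gpr83 is lowest in Th1.

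Levels were compared between genes per kilobase of exon (CPM per kb over the union of GENCODE vM21 exons). In Naive, Foxp3 was first at 11.9 ± 4.75 CPM per kb, ahead of Ikzf2 (6.87 ± 2.26), Lrrc32 (6.29 ± 2.86), Gpr83 (5.05 ± 2.18), Nrp1 (3.46 ± 0.70) and Ikzf4 (2.21 ± 1.20; SD, n = 2). Foxp3 lay just above Ikzf2 without overlap (8.56 to 15.3 against 5.28 to 8.47), an order on which its shared exon bases bear, and each later neighbour overlapped the one before it. In Th17 the order was Foxp3 (3.48 ± 0.993), Lrrc32 (3.19 ± 1.32), Ikzf4 (2.26 ± 0.788), Gpr83 (1.62 ± 0.0813), Ikzf2 (1.05 ± 0.280) and Nrp1 (0.803 ± 0.148). Only Gpr83 was apart from both its neighbours there. In Th1, Lrrc32 led at 12.5 ± 5.07 CPM per kb, apart from Ikzf4 (2.46 ± 0.665), Foxp3 (2.202 ± 0.968) and Nrp1 (2.08 ± 0.253), which overlapped, and Ikzf2 (0.751 ± 0.269) and Gpr83 (0.383 ± 0.0730) followed, each apart from its neighbours. With the longest transcript in place of the union of exons, a length chosen after the data were seen, Foxp3 stayed first in Naive and Th17 and Lrrc32 in Th1, and Nrp1, whose longest transcript has 3645 of 9785 exon bases, moved from the fifth place to the second in Naive and from the fourth to the second in Th1.

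The genes whose log2 CPM ran most closely with each of the 6 across the libraries were listed as a description, with 6 points that share library and depth and fall into 3 cell types. Foxp3 was closest to Afap1 (Pearson r = 0.994), Greb1l (0.991) and Prkch (0.990), and 108 of 13606 other genes had r over 0.95. Closest to Ikzf2 were Unc13b (0.996), Eif2ak4 (0.995) and Zfp459 (0.995), and to Gpr83 Tspan9 (0.996), Ttc3 (0.996) and Adamts6 (0.994). In Th17 replicate 2 and Th1 replicate 2, 3 counts equal 0.170 and 0.190 CPM. Greb1l (0.113 and 0.126 CPM) and Unc13b (0.170 and 0.126 CPM) were at or under that level there, so counting error bears on their r. Lrrc32 was nearest to Sh3bp1 (0.997), Ercc5 (0.995) and Sema4a (0.994), Nrp1 to Dleu2 (0.988) and Tet1 (0.986), and Ikzf4 to Pde1b (0.961), Iqce (0.960) and Klhl28 (0.957). Only 7 genes had r over 0.95 with Ikzf4, against 262 with Lrrc32. Among the 6 genes themselves, Foxp3 ran with Gpr83 (r = 0.922) and Ikzf2 (0.910), and neither with Lrrc32 (-0.07) nor with Ikzf4 (-0.05).

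Genes that act beside these 6 were read from 3 lists. The first held 26 surface and effector genes of regulatory T cells, many of which activated T cells also express. In Th17 vs Naive 8 of the 26 were called higher and 1 lower (median log2 fold change 0.78), in Th1 vs Naive 12 higher and 3 lower (1.74), and in Th1 vs Th17 6 higher and 2 lower (0.64). Over all genes, 73.7%, 62.2% and 48.8% of calls were higher in these comparisons. Of all tested genes, 4.01%, 4.64% and 2.70% were called higher, and 1.43%, 2.81% and 2.83% lower. The 9 calls of this list in Th17 vs Naive became 5 without Naive replicate 1, Naive replicate 2 or Th17 replicate 1 and 4 without Th17 replicate 2, and the 8 in Th1 vs Th17 became 4 without Th17 replicate 1 or Th1 replicate 1, 5 without Th1 replicate 2 and 3 without Th17 replicate 2. Il2ra, the IL-2 receptor α chain, was at 57.0 ± 20.8 CPM in Naive, 397 ± 135 in Th17 and 933 ± 144 in Th1 (SD, n = 2), higher than Naive by log2 2.80 in Th17 (SE 0.38, edgeR adjusted p = 0.0015) and 4.03 in Th1 (SE 0.40, edgeR adjusted p = 2.6e-04). The protease Gzmb rose by log2 5.41 in Th17 and 6.34 in Th1, and the cytokine Il10 by 3.20 and 6.25, all 4 called by edgeR. The highest Il10 levels were 26.2 and 16.1 CPM, in Th1. Entpd1 (CD39) rose in Th1 relative to Naive by 3.48 and to Th17 by 3.83. Penk, which encodes proenkephalin, fell in Th1 relative to both Naive (log2 -4.24) and Th17 (log2 -3.82), which like Gpr83 separated Th1 from Th17.

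The second list held 33 factors that regulate Foxp3 or bind its protein. In Th17 vs Naive 2 were called, both lower, Gata3 (log2 -2.36) and Nfatc1 (-1.67), where 1.43% of all genes were called lower, and in Th1 vs Naive 1 was called, Nr4a3 (-3.93), an orphan nuclear receptor induced by T cell receptor signals, which was at 7.04 and 14.7 CPM in Naive and at most 2.19 CPM elsewhere. In Th1 vs Th17 4 of the 33 were higher, Gata3 (3.71), Hdac7 (1.80), Nfatc1 (1.77) and Foxp1 (1.66), and 0 lower. Among all tested genes, 4.64% were called higher and 2.81% lower in Th1 vs Naive, and 2.70% and 2.83% in Th1 vs Th17. The medians of the list were -0.49 (Th17 vs Naive), 0.10 (Th1 vs Naive) and 0.38 (Th1 vs Th17). Scaling by library size alone moved the median of all genes to -0.26 in Th1 vs Naive and -0.24 in Th1 vs Th17, a shift larger than the list's median in Th1 vs Naive. The counts of this list were unstable. The 2 calls in Th17 vs Naive became 0 without Naive replicate 2, Th17 replicate 1 or Th17 replicate 2 and with library size alone, 3 without Th1 replicate 2, 4 without Naive replicate 1, 6 without Th1 replicate 1 and 7 with DESeq2. The 1 call in Th1 vs Naive became 2 without Th17 replicate 1 or Th17 replicate 2 and 6 with DESeq2, and the 4 in Th1 vs Th17 became 0 without Th17 replicate 2, 1 without Th17 replicate 1 or Th1 replicate 2 and with library size alone, 7 without Naive replicate 1 or Naive replicate 2, and 8 with DESeq2.

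The third list held 25 genes, namely the other Ikaros genes, genes that handle latent TGF-β and its receptors, and neuropilin partners, of which 23 were tested. In Th17 vs Naive 2 were called lower and 0 higher (median -0.23), in Th1 vs Naive 2 higher and 3 lower (-0.12), and in Th1 vs Th17 1 each way (0.38, also with Itgb8 set at 3 counts per library where it had 0). Over all tested genes, 1.43% were called lower and 4.01% higher in Th17 vs Naive. These shares were 2.81% and 4.64% in Th1 vs Naive, and 2.83% and 2.70% in Th1 vs Th17. The 2 calls in Th17 vs Naive became 0 without Naive replicate 2 or Th17 replicate 1, 1 without Th17 replicate 2, 3 without Naive replicate 1 or Th1 replicate 2, 5 without Th1 replicate 1 and 8 with DESeq2. The 5 in Th1 vs Naive became 3 without Th1 replicate 1 or Th1 replicate 2, and the 2 in Th1 vs Th17 became 0 without Th17 replicate 2 and 1 without Th1 replicate 1 or Th1 replicate 2. Furin, which cleaves pro-TGF-β, was at 88.4 ± 10.5 CPM in Naive, 345 ± 202 in Th17 and 2921 ± 135 in Th1 (SD, n = 2), and rose in Th1 by log2 5.05 relative to Naive and 3.08 relative to Th17. Like Lrrc32, Furin was highest in both Th1 libraries. Itgb8, whose integrin frees TGF-β from its latent form, had 89 and 65 counts in Naive, 2 and 0 counts in Th17 and none in Th1, and was called lower in both. Tgfbr3 (betaglycan) was the other gene lower in Th17 (-1.58). The neuropilin genes parted, since Nrp2 was lower in Th1 than in Th17 (log2 -3.60, edgeR adjusted p = 0.0036), at 5.003 and 11.7 CPM in Th17 and 0.758 and 0.569 CPM in Th1, whereas Nrp1 was higher in Th1 without a call. Plxna3, a neuropilin-associated plexin, fell in Th1 vs Naive (log2 -3.84), Plxna2 was also called lower there with 1 and 0 counts in Th1, and Vegfa, a neuropilin ligand, rose by 3.48.

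**Figure D4:**
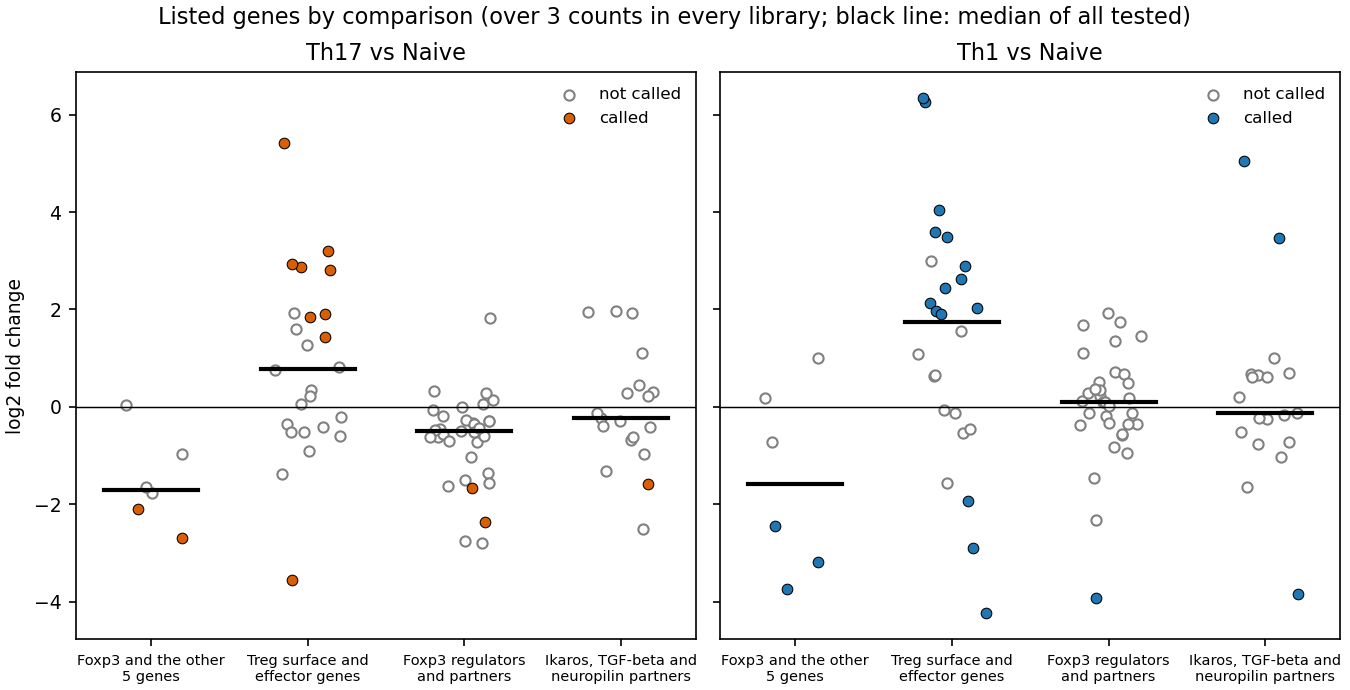
Log2 fold change (y axis) of the 6 genes and of the listed genes with over 3 counts in every library, in Th17 vs Naive (left) and Th1 vs Naive (right), where filled points were called by edgeR, open points were not, and black lines mark the median over all tested genes of a list. The medians of the 6 genes lie at -1.70 and -1.59, and those of the 26 surface and effector genes at 0.78 and 1.74.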

How the data were processed

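RNA-Seq reads of 6 libraries had been mapped by the authors to mm10 with Hisat2 (2.2.1) and counted per gene with HTSeq (0.13.5), and the deposited files hold 1 raw count per gene and library. According to the methods, HTSeq ran with default settings after removal of duplicates, whereas the study's code shows no such step and a reverse-strand setting, and the annotation version is not given in the sources used here. Per the labels, libraries were made from poly(A) RNA by Smart-seq2 and TruSeq. Totals ran from 17742158 to 69080017 counts.

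For testing, edgeR (4.0.16) with limma (3.58.1) ran under R (4.3.3) with TMM scaling, filterByExpr (13607 of 24223 genes kept, 6377 without any count), quasi-likelihood F-tests over all 6 libraries with no covariate, and Benjamini-Hochberg adjustment over all tested genes. Calls needed an adjusted p-value below 0.01 plus a log2 fold change beyond 1 in either direction, the study's thresholds. CPM used TMM-scaled totals, and a prior count of 2 for log2 CPM. Groups came from the labels, and since none ties a replicate to an animal, p-values measure the spread between these samples. Replicates differed far beyond counting noise (chi-square per degree of freedom 90.9 to 141). DESeq2 (1.42.0), other scalings, filters, a replicate block, thinning and leaving out each library were alternatives. The scripts were tested on simulated data with known changes of 2 sizes, both beyond the log2 threshold. Of 100 changes per size, edgeR recovered 77 of the larger and 18 of the smaller, with 4 false calls. DESeq2 recovered 82 and 43, with 13 false calls. A gene without a call may therefore still have changed.

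All 6 genes were named whatever their values, with the 3 genes of highest Pearson r to each (1 of those for Nrp1 is not reported here), and up to 5 genes per list called in any comparison by the largest fold change with over 3 counts in every library, plus the other Ikaros genes. Itgb8, Plxna2, Siglech, Pecam1, the other single marker genes and the neighbours of Foxp3, outside that rule, were named after their values were seen. Members and lists were chosen with earlier results of these data known.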

Additional observations from a re-analysis of the deposited data

How the results depend on the processing

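Of the alternatives for the log2 fold changes of the 6 genes, 231 kept direction and side of the threshold, 19 gained a call, 12 lost one and 8 turned sign, all 8 for Ikzf4. In Th17 vs Naive, 739 genes and 2 of the 6 were called, against 1717 and 4 with DESeq2, 2154 and 4 with no filter on low counts, 2063 and 4 at an adjusted p under 0.05, and 369 genes with at least 10 counts in every library. Foxp3 was then called at -1.77 with DESeq2 and with no filter, and at -1.73 with only the 4 libraries compared. In Th1 vs Naive, 1014 genes were called, against 1917 with DESeq2, 2259 with no filter and 2164 at 0.05. In Th1 vs Th17, 752 genes and 1 of the 6 were called, against 1797 and 3 with DESeq2, 2232 and 3 with no filter, 2112 and 3 at 0.05, 442 genes with at least 10 counts in every library, 2 of the 6 with only the 4 libraries compared, and 0 of the 6 in thinned libraries. With library size alone, the log2 fold change of Ikzf4 was -0.0743 in Th1 vs Naive and -0.0927 in Th1 vs Th17, and the share of calls that were higher in Th1 than in Th17 was 36.6% in place of 48.8%.

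Leaving out 1 library gave 316 to 1042 genes and 0 to 3 of the 6 in Th17 vs Naive, 593 to 883 genes in Th1 vs Naive, and 187 to 1061 genes and 0 to 2 of the 6 in Th1 vs Th17. Foxp3 then ran from -2.13 to -1.29 (Th17 vs Naive) and from -2.97 to -1.97 (Th1 vs Naive). Ikzf4 ran from -0.43 to 0.74 (Th17 vs Naive), -0.31 to 0.87 (Th1 vs Naive) and -0.19 to 0.54 (Th1 vs Th17). Such a fit assumes that the lone library of a cell type varies like the others. The cause of these changes was not tested.

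Deviations of same-numbered libraries correlated at -0.23 (Naive and Th17), 0.17 (Naive and Th1) and 0.08 (Th17 and Th1). With 2 libraries per cell type, these values cannot decide whether replicate numbers pair the samples. With the replicate block, edgeR called 1035, 1402 and 1041 genes in the 3 comparisons and 2 of the 6 in Th1 vs Th17, and DESeq2 called 1515, 1799 and 1630 genes and 4, 3 and 3 of the 6, with Foxp3 at -1.66 in Th17 vs Naive. A crossed replicate block on the Naive and Th17 libraries, added after the data were seen, gave 1594 genes and 3 of the 6. With 2 libraries per cell type, the spread between replicates is estimated from few samples, while the 6 genes had at least 35 counts in every library.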
